A study of Homo sapiens with 18 samples.

Results

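The neighbourhood described here is a stretch of human chromosome 11 around the genes of the long noncoding RNAs NEAT1 and MALAT1, hg19 chr11:65100000-65420000. Its members are the annotated repeat copies, of any name, that start and end inside this stretch. Within it they were taken by position alone, but the stretch itself was chosen with earlier results of these data known. The table for the 5-fluorouracil (5-FU) libraries holds 507 such copies of 2404193 in all, and the table for the Nutlin libraries holds 462 of 1996647. Both tables share 458 of them, and 511 copies are listed in at least 1 table. NEAT1 was taken as chr11:65190260-65213020 and holds 28 copies in either table. MALAT1 was taken as chr11:65265230-65273950 and holds 1 copy, an L1M4c fragment at chr11:65267133-65267487. In the 5-FU and Nutlin tables, the stretch before NEAT1 holds 151 and 139 copies, the stretch between the genes 126 and 110, and the stretch after MALAT1 201 and 184. No copy lies across an edge of either gene.

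All samples were IMR90, human lung fibroblasts grown as an established cell line and labelled wildtype, and total RNA was sequenced from libraries made with a stranded kit. There were 18 samples in 9 groups of 2. Nutlin, which blocks the binding of MDM2 to p53, was given at 5 µM for 6 h. 5-FU, an antimetabolite that disturbs the making of RNA and DNA, was given at 375 µM for 6, 12 or 24 h. Every drug group had DMSO samples of its own for that drug and time, and the untreated samples received fresh medium 12 h before extraction. The labels do not say whether replicates came from separate cultures, so each p-value measures the spread between these samples, which may be technical. The rows are repeats and hold no gene, so markers of fibroblasts were not checked.

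NEAT1 RNA is made in a short and a long form from the same start, and the long form is the scaffold of paraspeckles, which are nuclear bodies that hold RNA-binding proteins and some edited RNAs. NEAT1 is a known target of p53. MALAT1 is an abundant RNA of nuclear speckles, where splicing factors gather, and lies next to NEAT1 in the same orientation. Neither the long form of NEAT1 nor MALAT1 carries a usual poly(A) tail. RNase P cuts both before a tRNA-like structure, and the new end is held in a triple helix of U-rich and A-rich stretches. A repeat fragment inside a gene can be transcribed as part of the host RNA, and counts per copy do not tell such reads from those of a repeat's own promoter.

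The RNA sequences at the ends of these forms are shown first. Which form the repeats can report on was read from the annotated transcript ends given after them. They were read from GENCODE v29 transcripts, written 5′ to 3′ as DNA with the sense strand only. The first is positions 3666 to 3751 of NEAT1-202, the long form, with the AATAAA poly(A) signal near the end of the short form in capitals. The other sequences are positions 22651 to 22743 of NEAT1-202 and positions 8265 to 8355 of MALAT1-202, with the T-rich stretches TTTCTTTT and TTTTGCTTTT and the A-rich stretch AAAAGCAAAA in capitals.
NEAT1 short-form end: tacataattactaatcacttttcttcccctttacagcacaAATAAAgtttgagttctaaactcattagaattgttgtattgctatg
NEAT1 long-form end: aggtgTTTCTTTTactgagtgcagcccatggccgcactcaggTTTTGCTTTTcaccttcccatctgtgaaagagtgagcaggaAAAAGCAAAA
MALAT1 end: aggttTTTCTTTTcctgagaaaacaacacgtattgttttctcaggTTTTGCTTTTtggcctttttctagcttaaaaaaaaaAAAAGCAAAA

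The poly(A) signal shown starts at position 3706, and AATAAA occurs 2 times before position 4000 of NEAT1-202. AATAAA is common, and 26.3% of 204652 transcripts hold it in their last 86 bases. The T-rich and A-rich pair is rare. TTTTGCTTTT followed by AAAAGCAAAA stands in the last 500 bases of 6 of 168622 transcripts of that length or longer (0.00356%), which belong to MALAT1, NEAT1, NDUFA5 and RETREG3. Of these 6 transcripts, 2 also hold TTTCTTTT ahead of the pair. The annotation lists 8 NEAT1 transcripts. The long form is a single exon of 22743 bases, and the other 7 end within 3715 bases of its start. The first NEAT1 repeat, a MamRep4096 fragment, starts 5743 bases past the NEAT1 start, and the last, HAL1ME, starts 22224 bases past it. All 28 measured copies therefore lie beyond the annotated ends of the short forms, and no copy lies in the part that the short and long forms share. The L1M4c copy starts 1903 bases past the start of MALAT1.

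The values are read counts per repeat copy, given below as CPM, the usual count normalised to the scaled library size, and every list of values names replicate 1 before replicate 2. Libraries of the 5-FU table held 2412334 to 6290320 counts and those of the Nutlin table held 9109885 to 11880265. Ribosomal, transfer and small RNA, called structural RNA here, took 74.4% to 80.6% of the Nutlin table and 30.0% to 45.2% of the 5-FU table. The Nutlin table gives its untreated samples with the same counts at every copy, so they were used as 1 sample. Outside structural RNA it held 2474410 counts, near the 2435957 of untreated replicate 1 in the 5-FU table. Structural RNA nonetheless took 74.4% of the one and 30.0% of the other, and summed NEAT1 was 155 and 407 CPM. CPM levels therefore cannot be compared between the tables. The neighbourhood held 0.0326% to 0.0499% of the counts of a Nutlin-table library and 0.0929% to 0.327% of a 5-FU-table library. NEAT1 copies summed to 792 to 11699 counts per library and the MALAT1 copy to 1312 to 10854. In bulk RNA, fewer cells with an RNA and less of it per cell cannot be told apart. The kit marks strand, but whether the counting used it, and how reads that match several copies were assigned, is not given in the sources used here.

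Most of the repeat counts of the neighbourhood lay in the 29 copies inside the genes. In the 5-FU table, NEAT1 held 33.99% of the counts of the neighbourhood and MALAT1 56.8%, and the 478 flanking copies shared the rest. In the Nutlin table the shares were 44.4% and 41.1%. Per length and over all libraries of the 5-FU table, the MALAT1 copy reached 3219 CPM per kb. The NEAT1 copies ranged from 19.4 to 257 CPM per kb with a median of 70.6. The median copy stood at 0.797 CPM per kb before NEAT1, 0.403 between the genes and 1.101 after MALAT1. The level differed between the 2 sides of each edge of NEAT1. The last 10 copies before it had a median of 1.59 CPM per kb and its own first 10 had 64.7. Its last 10 had 67.1, and the 10 copies after it had 0.453. No copy lies between positions 65188340 and 65196003 or between 65212578 and 65214526, so the edges themselves were not sampled. Of the flanking copies, 2 reached the range of NEAT1, namely LFSINE_Vert at chr11:65418304-65418368, 65 bases long near the far end of the neighbourhood (39.4 CPM per kb), and an AluSg before NEAT1. This AluSg at chr11:65180457-65180756 stood at 126 CPM per kb, and the next copies by mean CPM in that stretch, L2c at chr11:65142665-65143146 and AluSz at chr11:65140441-65140721, stood at 10.9 and 6.91. Between the genes, mean CPM was highest in Charlie8 at chr11:65223559-65224450 (15.2 CPM per kb), in AluY at chr11:65223240-65223558 (11.3) and in a further Charlie8 piece at chr11:65223066-65223239 (6.37), which adjoin each other. After MALAT1, AluSx1 at chr11:65314537-65314832 (9.95) and L2a at chr11:65301900-65302536 (4.08) had the highest mean CPM, with LFSINE_Vert next. No copy was at 0 in every library inside the genes. In the 5-FU table, a total of 29 copies before NEAT1, 15 between the genes and 32 after MALAT1 were at 0 throughout.

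**Figure D1:**
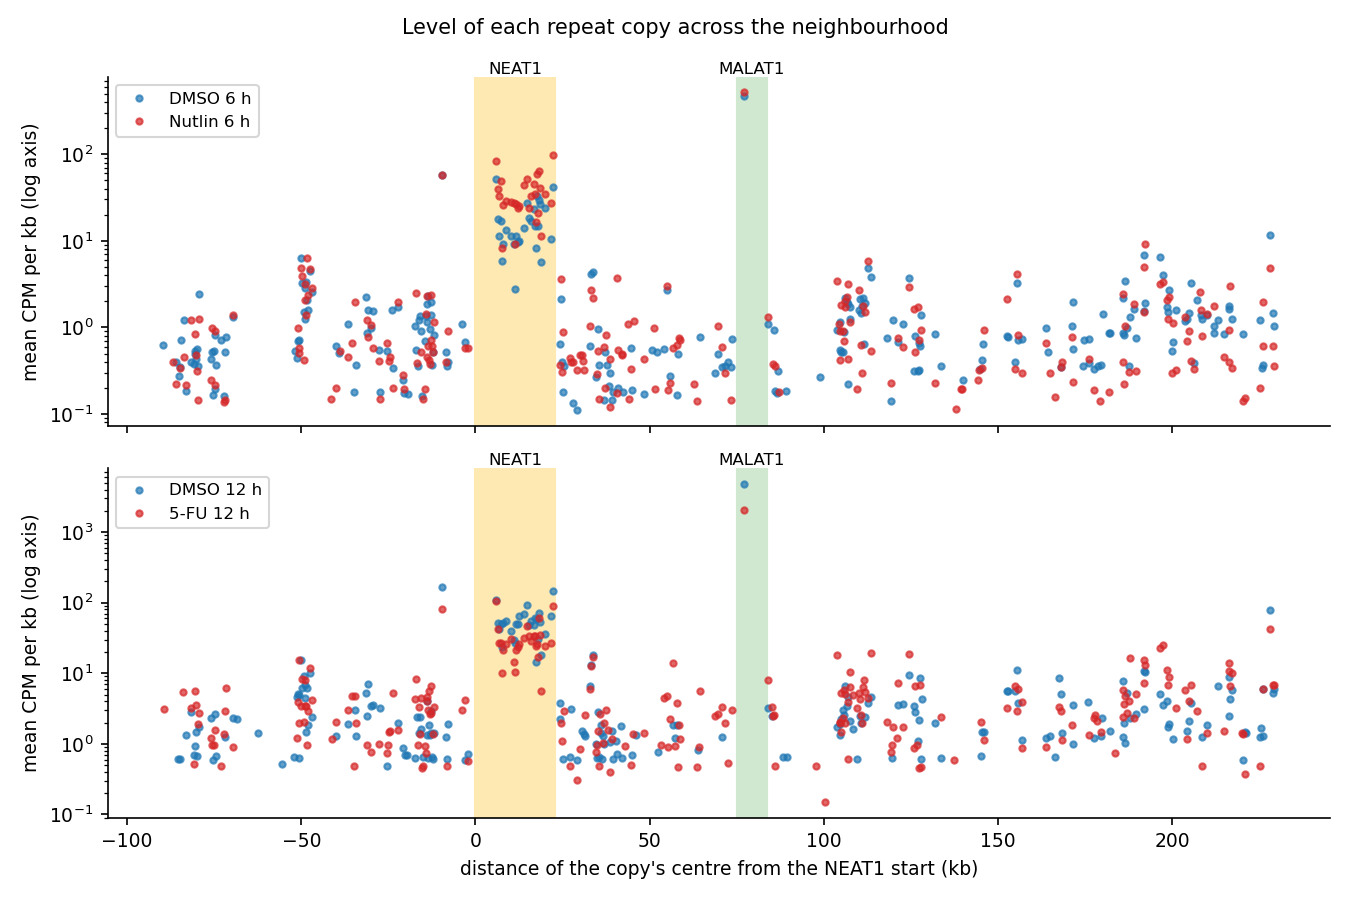
Mean level of each repeat copy in CPM per kb (log axis) against the distance of its centre from the NEAT1 start in kb, for DMSO and Nutlin at 6 h (top) and DMSO and 5-FU at 12 h (bottom), n = 2 libraries a group. Copies at 0 in a group are not drawn (197 and 215 of 462 in the top panel, 280 and 258 of 507 in the bottom panel), and the copies inside the shaded genes stand above nearly all flanking copies.

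Within NEAT1 the levels were uneven. Of the 28 copies, 15 are L1 fragments, 6 Alu, 3 MIR and 4 pieces of DNA transposons or other MER elements, and together they cover 8664 bases. The highest levels per length were at the outermost copies, MamRep4096 (257 CPM per kb) and HAL1ME (240), which are 62 and 95 bases long. The lowest were L1M5 at chr11:65208976-65209335 (19.4), L1ME3F at chr11:65201342-65201665 (22.7) and Charlie4z (26.4). In the Nutlin table HAL1ME (64.4 CPM per kb) and MamRep4096 (62.6) were again the highest and L1ME3F (5.86) the lowest. The median was 64.7 CPM per kb for the 10 copies that start before the midpoint of NEAT1 and 75.3 for the 18 after it. These copies lie along the same annotated long form and their reads may come from it. They were therefore not taken as independent replicates of a change.

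Nutlin at 6 h was compared with DMSO to ask what p53 release from MDM2 does to this RNA. NEAT1 copies rose, and neither MALAT1 nor any tested flanking copy passed the test. The summed NEAT1 level was 149 and 112 CPM in the DMSO libraries and 265 and 296 CPM in the Nutlin libraries. Both Nutlin libraries stood above both DMSO libraries and above the untreated sample (155 CPM). The group means were 131 ± 25.8 and 280 ± 22.0 CPM (SD, n = 2), a ratio of 2.14. The sums carry no test, and the single copies were tested in the fit across the whole table.

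Of the 26 NEAT1 copies that passed the low-count filter, 14 rose and 0 fell in edgeR's quasi-likelihood test (adjusted p under 0.05, Benjamini-Hochberg adjustment over 21328 copies). Over the whole table, 5.36% of the tested copies were called higher, 4.21% lower and 9.57% either way. The log2 fold changes of the 26 copies ran from 0.42 to 1.70 with a median of 1.18, and the median over all tested copies was 0.01. Nutlin libraries lay above both DMSO libraries at 25 of the 26, against 27.1% of all tested copies, and MER113A was the exception. Charlie4z and an L1M4 fragment had too few counts to be tested. Their mean levels were 0.745 and 0.639 CPM in DMSO and 1.07 and 1.27 CPM in Nutlin, without overlap.

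The smallest p was that of L1ME4b at chr11:65204083-65204531. It measured 7.995 and 4.59 CPM in DMSO and 19.5 and 20.3 CPM in Nutlin, with 9.80 CPM in the untreated sample. The Nutlin libraries agreed within 1 CPM and stood clear of the other 3 libraries (log2 fold change 1.66, SE 0.22, adjusted p 0.000708 by edgeR's quasi-likelihood test). L1MB7 at chr11:65205862-65206855, a longer copy of 994 bases, measured 18.4 and 15.2 CPM in DMSO and 30.6 and 34.7 CPM in Nutlin (log2 fold change 0.96, SE 0.14, adjusted p 0.00157, edgeR). L1MB2 at chr11:65198360-65199697, with 1338 bases the longest, measured 20.5 and 15.3 CPM in DMSO and 33.5 and 43.8 CPM in Nutlin (log2 fold change 1.104, SE 0.17, adjusted p 0.00184, edgeR). The groups did not overlap at either copy. The copy with the fewest counts among those called, L1ME3F, had the highest log2 fold change, 1.70 (SE 0.45), from 0.972 and 0.834 CPM in DMSO to 2.38 and 3.62 CPM in Nutlin (adjusted p 0.0360, edgeR).

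The other copies that rose were L1ME4a at chr11:65196353-65196952 (log2 fold change 1.15), at chr11:65196994-65197285 (1.54) and at chr11:65202701-65203040 (1.34), L1ME3G (1.23), L1PB3 at chr11:65200165-65200700 (1.31), L1M5 at chr11:65198047-65198357 (1.48), HAL1ME (1.20), MIRb (1.47), MIR (1.07) and AluSz6 (0.94). By class, 11 of 14 tested L1 fragments, 2 of 3 MIR, 1 of 6 Alu and 0 of 3 DNA transposon or MER pieces were called. Their median log2 fold changes were 1.27, 1.36, 0.72 and 0.69. Before the midpoint of NEAT1, 7 of 9 tested copies were called with a median of 1.47, and after it 7 of 17 with a median of 0.997. Neither the difference between these parts of the gene nor that between the classes was tested. All 6 Alu copies start after the midpoint, so class and position are not separate here. Depth differed as well, and the highest total of a copy was 1330 counts for L1, 470 for Alu, 428 for MIR and 187 for the DNA transposon or MER pieces. The 12 copies that were not called were also above 0, and 8 of them had an unadjusted p under 0.05. With the called copies counted too, 22 of 26 had one, against 23.9% of all tested copies.

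**Figure D2:**
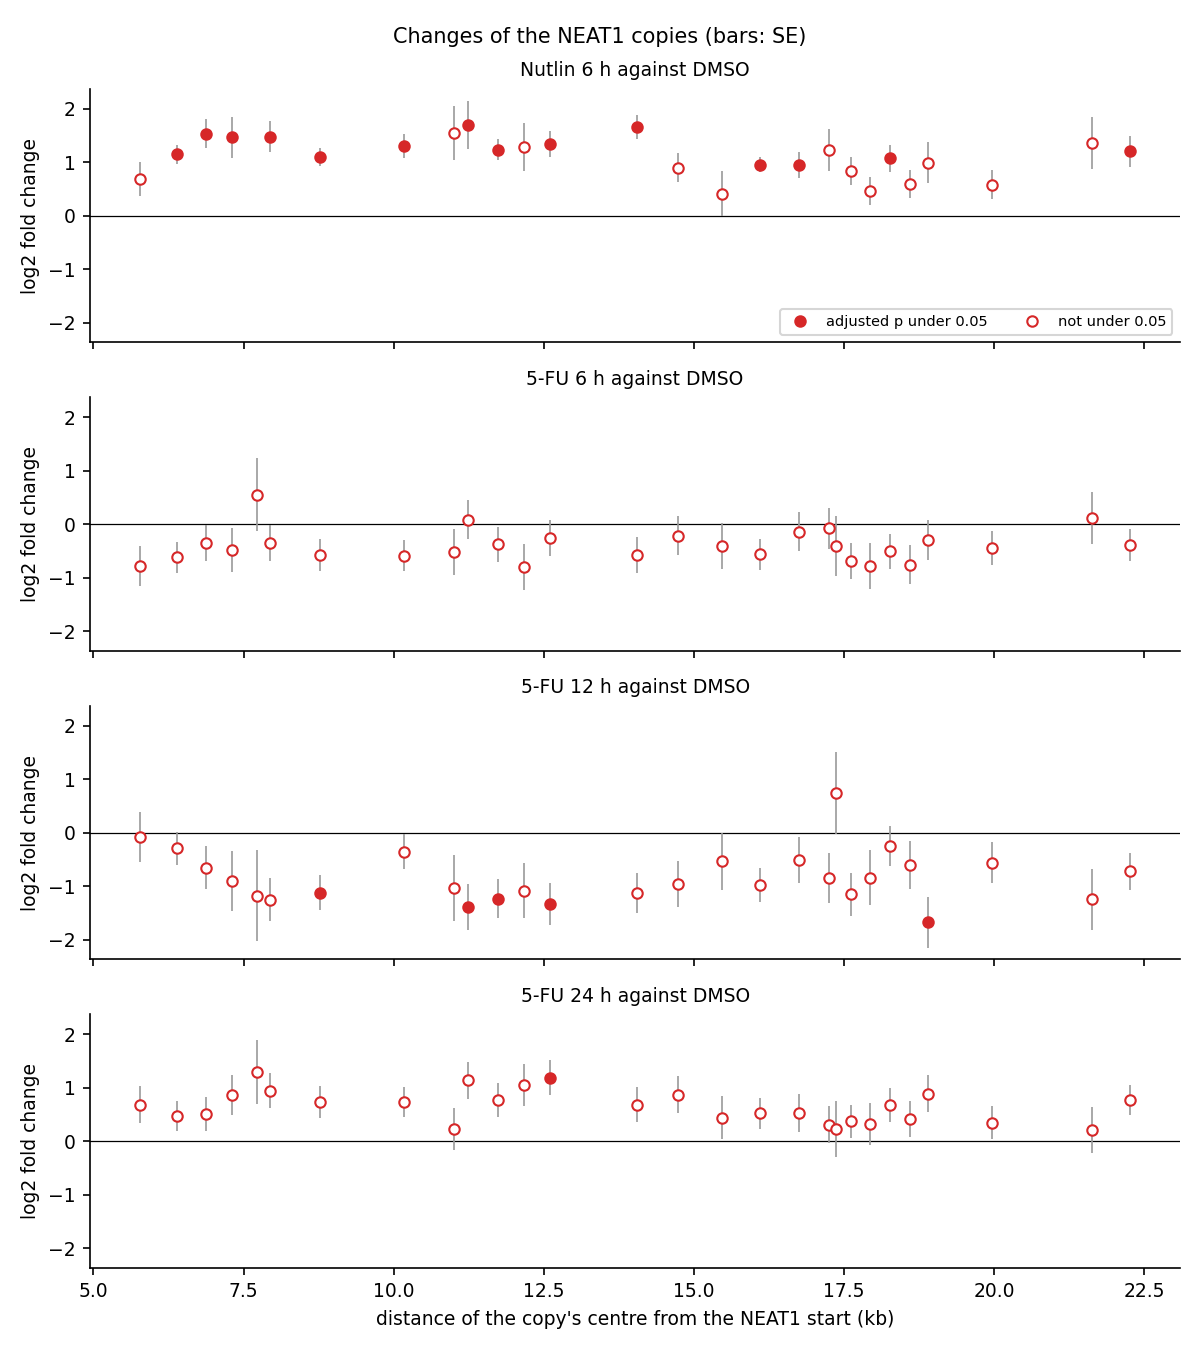
Log2 fold change (drug against the DMSO group of its own time) of each tested NEAT1 copy against the distance of its centre from the NEAT1 start in kb, with bars for 1 SE and filled points for an adjusted p under 0.05, n = 2 libraries a group. All 26 points lie above 0 under Nutlin, 25 of 28 below 0 at 6 h of 5-FU, 27 of 28 below 0 at 12 h and all 28 above 0 at 24 h.

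MALAT1 showed no called change under Nutlin. The L1M4c copy measured 193 and 137 CPM in DMSO and 171 and 195 CPM in Nutlin, with 205 CPM in the untreated sample, and the groups overlapped (log2 fold change 0.15, SE 0.15, adjusted p 0.592, edgeR). Within each library, the ratio of NEAT1 to MALAT1 counts does not depend on scaling. It was 0.770 and 0.822 in DMSO, 0.755 untreated, and 1.55 and 1.52 in Nutlin.

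Of the flanking copies, 6 could be tested and 0 were called, with 1 at an unadjusted p under 0.05. That was Charlie8 at chr11:65223559-65224450, which measured 4.75 and 3.13 CPM in DMSO and 1.498 and 2.42 CPM in Nutlin (log2 fold change -1.03, SE 0.37, adjusted p 0.108, edgeR). It was called lower without DMSO replicate 2 (log2 fold change -1.31, adjusted p 0.0292, edgeR) and without Nutlin replicate 2 (-1.40, adjusted p 0.0331, edgeR). The AluSg copy before NEAT1 measured 17.6 and 16.5 CPM in DMSO and 17.2 and 17.4 CPM in Nutlin, so the groups overlapped (log2 fold change 0.02, SE 0.15). The untreated sample was lower, at 9.89 CPM. L2c (log2 fold change 0.03), AluSz (0.33), AluY (-0.66) and, after MALAT1, AluSx1 at chr11:65314537-65314832 (-0.30) had adjusted p from 0.559 to 0.985 in the same edgeR fit. The summed level after MALAT1 was 25.2 ± 3.34 CPM in DMSO and 17.8 ± 1.63 CPM in Nutlin (SD, n = 2), with no overlap, and it was 25.9 CPM untreated.

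**Figure D3:**
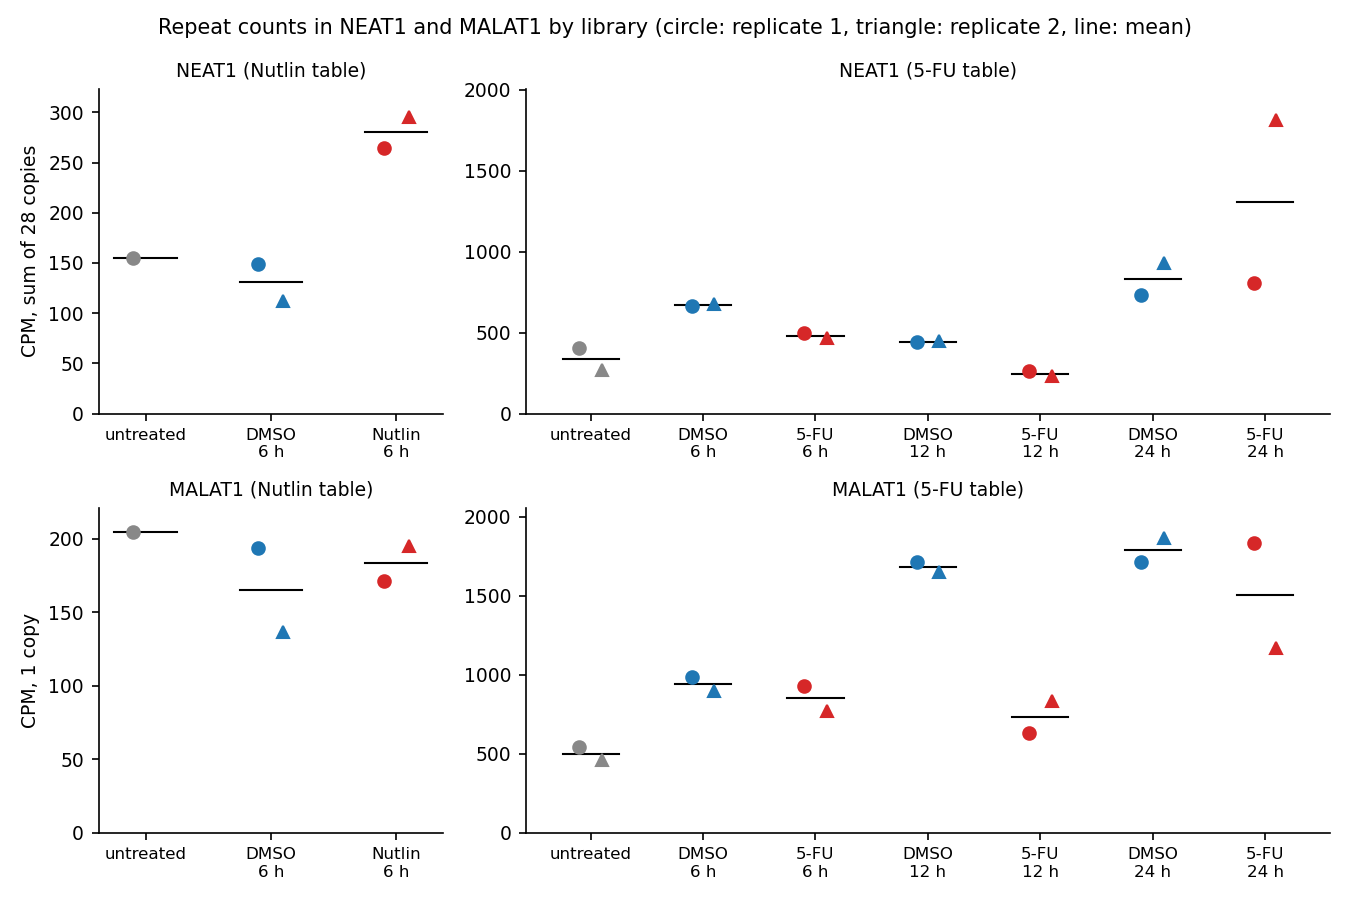
Summed CPM of the 28 NEAT1 copies (top) and CPM of the MALAT1 copy (bottom) in each library, with circles for replicate 1, triangles for replicate 2 and lines for the group mean, on linear axes from 0 that differ between the tables. NEAT1 stands at 265 and 296 CPM under Nutlin against 149 and 112 in DMSO, and at 24 h of 5-FU the libraries stand apart at 804 and 1812 CPM.

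5-FU at 6 h gave no called copy in the neighbourhood. Of 51 copies tested, 0 passed an adjusted p under 0.05 in edgeR, 3 had an unadjusted p under 0.05 (7.37% of the whole table had), and DESeq2 also called 0. Over the whole table only 0.101% of 63602 copies were called at this time. Summed NEAT1 was 664 and 674 CPM in DMSO and 497 and 465 CPM in 5-FU, a ratio of 0.719, and both 5-FU libraries were below both DMSO libraries. The log2 fold change was below 0 at 25 of 28 NEAT1 copies, with a median of -0.43. The 5-FU libraries lay below both DMSO libraries at 22 of 28, against 20.5% of all tested copies. The MALAT1 copy measured 987 and 897 CPM in DMSO and 932 and 770 CPM in 5-FU, so the groups overlapped (log2 fold change -0.15). The 3 copies with an unadjusted p under 0.05 were L1ME4a at chr11:65196353-65196952 in NEAT1 (log2 fold change -0.62, adjusted p 0.661) and, after MALAT1, L2a at chr11:65301900-65302536 (3.31, adjusted p 0.382) and AluSx1 at chr11:65314537-65314832 (1.40, adjusted p 0.641), all from edgeR.

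5-FU at 12 h lowered the MALAT1 copy and part of NEAT1. Of 51 tested copies 7 fell and 0 rose, namely 5 of 28 in NEAT1, the MALAT1 copy and the AluSg before NEAT1 (edgeR, adjusted p under 0.05). Over all 63602 copies 4.27% were called lower, 5.44% higher and 9.71% either way. Summed NEAT1 was 443 and 445 CPM in DMSO and 261 and 230 CPM in 5-FU, a ratio of 0.553 with no overlap. The log2 fold change was below 0 at 27 of 28 NEAT1 copies, with a median of -0.93 against -0.04 for all tested copies, and L1M4 was the exception (0.74). At 24 of 28 both 5-FU libraries were below both DMSO libraries, against 28.4% of all tested copies.

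The MALAT1 copy had the smallest p of the neighbourhood at this time. It measured 1715 and 1650 CPM in DMSO and 633 and 831 CPM in 5-FU, a ratio of 0.435 (log2 fold change -1.20, SE 0.24, adjusted p 0.00321, edgeR). Both 5-FU libraries were still above the untreated libraries, at 540 and 458 CPM. Within NEAT1 the called copies were all L1 fragments. The lowest fold change was that of L1M5 at chr11:65208976-65209335, with 6.30 and 6.88 CPM in DMSO and 2.65 and 1.45 CPM in 5-FU (log2 fold change -1.67, SE 0.48, adjusted p 0.0294, edgeR). L1MB2 measured 75.99 and 72.7 CPM in DMSO and 42.0 and 26.4 CPM in 5-FU (log2 fold change -1.12, SE 0.32, adjusted p 0.0316, edgeR). L1ME3F (-1.39), L1ME3G (-1.23) and L1ME4a at chr11:65202701-65203040 (-1.33) fell as well. MamRep4096, nearest the start of the gene, was at -0.08, the L1ME4a beside it at -0.29 and MIR at -0.24, and none of these was called.

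The NEAT1 calls at 12 h had adjusted p from 0.0294 to 0.0411 (edgeR). Leaving out any 1 of the 4 libraries left 1 or 2 called copies in the neighbourhood. MALAT1 stayed called without either DMSO 12 h library and without 5-FU 12 h replicate 2, and was lost without 5-FU 12 h replicate 1 (adjusted p 0.0738, edgeR). Structural RNA took 44.7% and 45.2% of the 5-FU 12 h libraries against 32.7% and 36.3% in DMSO. With structural RNA removed, 9 copies were called lower and 27 of 28 NEAT1 copies were still below 0, with a median of -0.9985. Scaling by library size alone shifted the median of all tested copies by -0.32, and the NEAT1 median then was -1.25. DMSO at 12 h itself was low for NEAT1 (444 ± 1.56 CPM) beside DMSO at 6 h (669 ± 7.41) and 24 h (831 ± 140; SD, n = 2), while for MALAT1 it was 1682 ± 46.4 CPM, above DMSO at 6 h (942 ± 63.5) and overlapping DMSO at 24 h (1790 ± 109). Against DMSO of 6 h and 24 h in place of its own time, 25 copies of the neighbourhood were called lower and 1 higher. Over all 63602 copies, this comparison called 3763 lower and 5614 higher.

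In the flanks, 1 of 22 tested copies was called at 12 h. This was the AluSg before NEAT1, which measured 50.04 and 50.9 CPM in DMSO and 22.1 and 26.4 CPM in 5-FU (log2 fold change -1.06, SE 0.31, adjusted p 0.0329, edgeR). Its untreated libraries measured 26.3 and 43.6 CPM. After MALAT1 the summed level was higher in 5-FU, 85.99 ± 12.3 against 53.5 ± 5.44 CPM (SD, n = 2), with no overlap. Untreated it was 66.8 ± 1.07 CPM. That sum was also higher in 5-FU at 6 h (58.0 against 41.4 CPM) but lower at 24 h (83.4 against 92.5 CPM), each without overlap. At 12 h, 0 of 13 tested copies after MALAT1 were called and 3 had an unadjusted p under 0.05, where 25.6% of the whole table had. Before NEAT1 the summed level at 12 h was lower in 5-FU, 69.5 against 86.4 CPM, with no overlap. That sum includes the AluSg, whose own fall was larger than that of the sum, so the remaining copies together were not lower. Of the 6 tested copies of that stretch, 4 had a log2 fold change above 0 and 2 below 0 (median 0.34). Between the genes, Charlie8 at chr11:65223559-65224450 measured 14.5 and 18.4 CPM in DMSO and 17.3 and 13.1 CPM in 5-FU (log2 fold change -0.11, adjusted p 0.873, edgeR), so the groups overlapped.

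At 24 h of 5-FU, NEAT1 was higher in 1 of the 2 libraries. Summed NEAT1 was 732 and 929 CPM in DMSO, and 804 CPM in 5-FU replicate 1 against 1812 CPM in replicate 2. Replicate 1 thus lay between the DMSO libraries and replicate 2 far above them. The fit gave log2 fold changes above 0 at all 28 NEAT1 copies, with a median of 0.68 against 0.00 for all tested copies, 14 of them at an unadjusted p under 0.05, as were 16.9% of the whole table. Only L1ME4a at chr11:65202701-65203040 was called, where 2.42% of the whole table was called higher and 4.23% either way. It measured 24.9 and 33.2 CPM in DMSO and 35.7 and 96.3 CPM in 5-FU (log2 fold change 1.19, SE 0.32, adjusted p 0.0385, edgeR). This call was made in 5 of 12 alternatives, with log2 fold changes from 0.29 to 1.73 and adjusted p up to 0.613. It was lost in DESeq2, with library size alone, and with only the compared groups in the fit. Both 5-FU libraries were above both DMSO libraries at 6 of 28 NEAT1 copies, against 22.3% of all tested copies.

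The ratio of each 5-FU library to the DMSO mean shows how evenly this held along the gene. In replicate 1 it ran from 0.697 to 1.73 over the 28 copies, with a median of 0.917. In replicate 2 it ran from 1.57 to 4.02, with a median of 2.12, and all 28 copies were above both DMSO libraries. Without replicate 1 the fit called 15 copies higher, and without replicate 2 it called 0 and the log2 ratio of the sums was -0.05. Structural RNA took 43.7% of replicate 1, like the 5-FU 12 h libraries, and 33.8% of replicate 2, within the range of DMSO at 24 h (31.7% and 34.5%). The part of this gap in the result was not tested. MALAT1 moved the other way between these libraries, with 1837 CPM in replicate 1 and 1169 CPM in replicate 2 against 1713 and 1867 CPM in DMSO (log2 fold change -0.25, SE 0.24, adjusted p 0.664, edgeR). In the flanks 0 of 22 tested copies were called, and the AluSg measured 37.6 and 29.4 CPM in DMSO and 35.0 and 17.2 CPM in 5-FU.

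**Figure D4:**
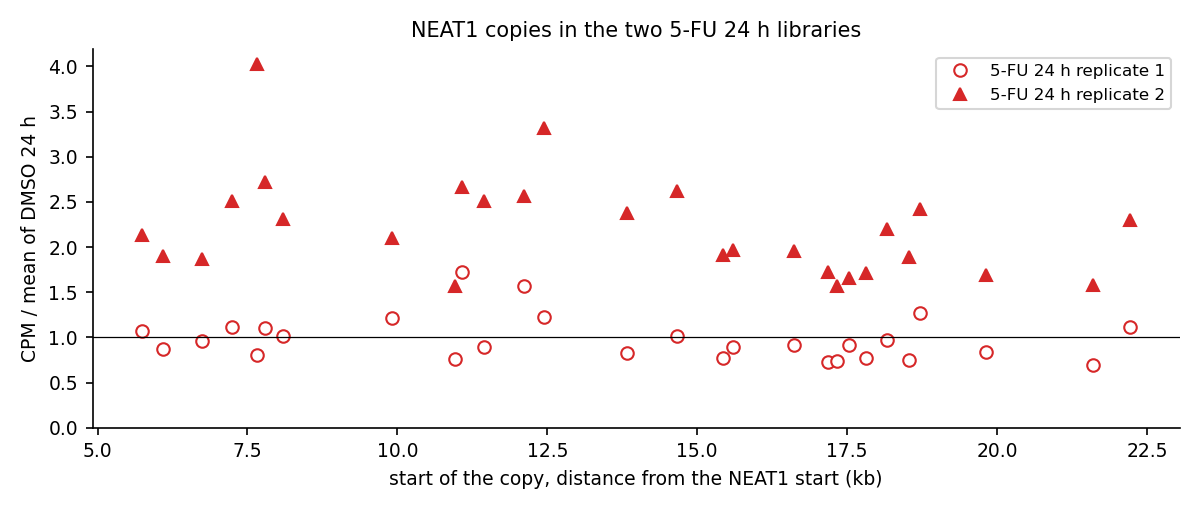
CPM of each NEAT1 copy in each of the 5-FU 24 h libraries divided by the mean of the DMSO 24 h libraries, against the start of the copy in kb from the NEAT1 start, with open circles for replicate 1 and filled triangles for replicate 2. The line marks a ratio of 1, around which replicate 1 lies (median 0.917), while every copy of replicate 2 lies above it (median 2.12).

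Whether the 5-FU effect differed between times was tested as an interaction. The effect at 24 h minus that at 6 h was called at 0 of 51 copies in edgeR (0.385% of the whole table), and 18 of 28 NEAT1 copies had an unadjusted p under 0.05, all in the direction of a higher effect at 24 h, where 8.22% of the whole table had. DESeq2 called 1. Without 5-FU 24 h replicate 1, 10 were called. Without replicate 2, copies of the neighbourhood with an unadjusted p under 0.05 went from 19 to 4. The effect at 24 h minus that at 12 h, a comparison chosen after the values were seen, was called at 3 of 51 copies, all in NEAT1 and all higher, where 0.208% of the whole table was called higher and 0.602% either way. These were L1M5 at chr11:65208976-65209335 (difference of log2 fold changes 2.57, SE 0.59, adjusted p 0.0474), L1ME3F (2.52, SE 0.55, adjusted p 0.0337) and L1ME4a at chr11:65202701-65203040 (2.52, SE 0.51, adjusted p 0.0211; all edgeR). Without 5-FU 24 h replicate 1 the count was 14, and without replicate 2 it was 1. It fell to 0 when any 1 of the 12 h libraries or DMSO 24 h replicate 1 was left out, and was 2 without DMSO 24 h replicate 2.

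A set of 4 copies was called under Nutlin and under 5-FU, all L1 fragments of NEAT1. The share of all copies called under both drugs was not counted, so this number has nothing to be set against. L1MB2, L1ME3F, L1ME3G and L1ME4a at chr11:65202701-65203040 rose under Nutlin at 6 h and fell under 5-FU at 12 h. In this order, their 12 h calls were made in 8, 5, 7 and 7 of 13 alternatives. The L1ME4a copy was also called higher at 24 h, a call lost in 7 of 12 alternatives. That L1ME4a copy measured 3.57 and 3.13 CPM in DMSO and 8.99 and 7.97 CPM in Nutlin in the one table. In the other it measured 22.2 and 21.8 CPM in DMSO and 9.70 and 7.84 CPM in 5-FU at 12 h, with 10.01 and 6.87 CPM in the untreated libraries. The tables were made differently, and the difference between the drugs was not tested.

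DMSO groups of the 5-FU table were compared with the untreated samples, which asks how the controls themselves stand. In this table NEAT1 and MALAT1 were higher in DMSO. Of 51 tested copies 5 rose and 0 fell (edgeR, adjusted p under 0.05), where 0.643% of the whole table rose and 1.02% fell. Summed NEAT1 was 407 and 266 CPM untreated and 648 CPM as the mean of the DMSO groups, a ratio of 1.93. The lowest DMSO group, at 12 h, stood at 443 and 445 CPM. The MALAT1 copy measured 540 and 458 CPM untreated and 897 to 1867 CPM in the 6 DMSO libraries, a ratio of 2.95, with no overlap (log2 fold change 1.503, SE 0.21, adjusted p 0.000636, edgeR). In NEAT1, L1ME4a at chr11:65196353-65196952 (log2 fold change 1.18), L1M5 at chr11:65198047-65198357 (1.57), L1ME4a at chr11:65202701-65203040 (1.55) and L1MB7 (1.08) rose. The DMSO libraries were all above both untreated libraries at 10 of 28 NEAT1 copies, against 8.07% of all tested copies. Without untreated replicate 1 a single copy was called and without untreated replicate 2 it was 0. Without DMSO 12 h replicate 2 or DMSO 24 h replicate 2 the counts were 2 and 3. The Nutlin table went the other way, and its untreated sample stood above both DMSO libraries. There NEAT1 was 155 CPM untreated against 149 and 112 CPM, and MALAT1 was 205 CPM against 193 and 137 CPM. The untreated cells had their medium changed 12 h before extraction, so the vehicle and the handling of the medium cannot be told apart.

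The order of the group means in the 5-FU table differed between the genes. Summed NEAT1 was lowest at 5-FU 12 h (246 ± 22.0 CPM), then untreated (336 ± 99.8), DMSO 12 h (444 ± 1.56), 5-FU 6 h (481 ± 22.4), DMSO 6 h (669 ± 7.41), DMSO 24 h (831 ± 140) and 5-FU 24 h (1308 ± 712; SD, n = 2 throughout). In this order, DMSO 24 h and 5-FU 24 h are the neighbours whose libraries overlap. MALAT1 ran from untreated (499 ± 57.7) through 5-FU 12 h (732 ± 140), 5-FU 6 h (851 ± 115), DMSO 6 h (942 ± 63.5), 5-FU 24 h (1503 ± 472) and DMSO 12 h (1682 ± 46.4) to DMSO 24 h (1790 ± 109). Here the libraries of 5-FU 12 h and 5-FU 6 h, of 5-FU 6 h and DMSO 6 h, of 5-FU 24 h and DMSO 12 h, and of DMSO 12 h and DMSO 24 h overlapped.

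In the 5-FU table the ratio of NEAT1 to MALAT1 within a library was 0.753 and 0.580 untreated and 0.672 and 0.751 in DMSO at 6 h, and it was lower in DMSO at 12 h (0.258 and 0.270) and 24 h (0.427 and 0.498). With 5-FU it was 0.533 and 0.604 at 6 h and 0.412 and 0.277 at 12 h. Both 12 h values were above those of DMSO, replicate 2 by little. At 24 h it was 0.438 in 5-FU replicate 1, between the DMSO values, and 1.55 in replicate 2.

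**Figure D5:**
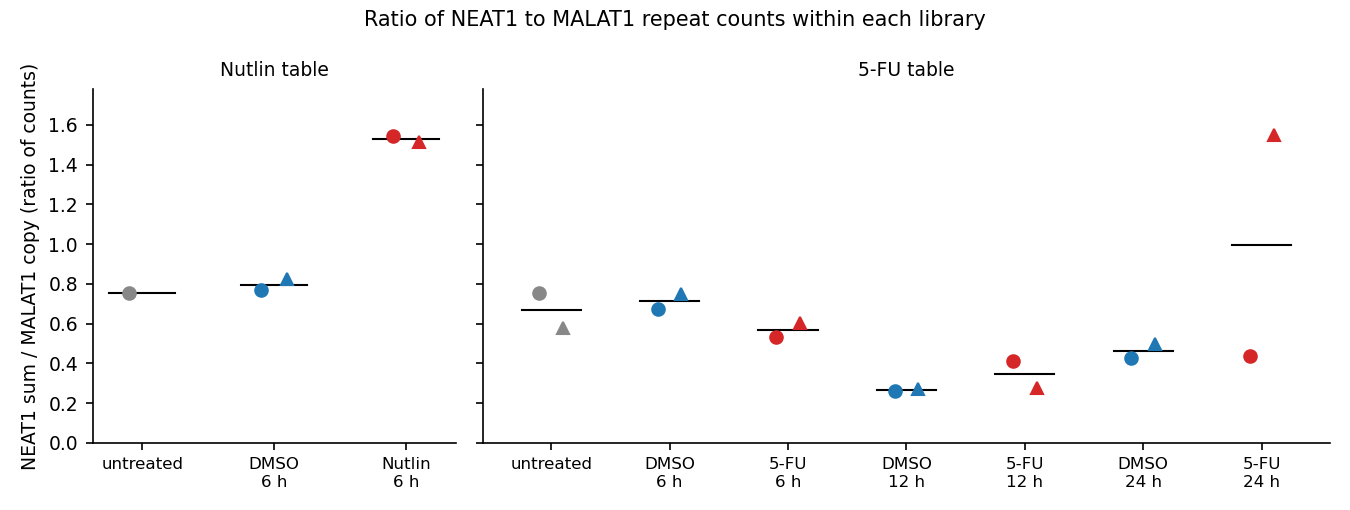
Ratio of the summed NEAT1 counts to the count of the MALAT1 copy in each library of the Nutlin table (left) and the 5-FU table (right), with circles for replicate 1, triangles for replicate 2 and lines for the group mean. Both Nutlin libraries (1.55 and 1.52) and 5-FU 24 h replicate 2 (1.55) stand above every other library, which lie between 0.258 and 0.822.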

How the data were processed

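The authors deposited raw read counts per annotated repeat copy as 2 tables, and the deposited counts were used without change. The submitters' processing notes name Trimmomatic 0.32, cutadapt 1.10, Bowtie2, edgeR, DESeq2 and hg19, with no roles. The repeat annotation and the counting program are not given in the sources used here. Groups came from the sample labels. The members and the lists were chosen with earlier results of these data known.

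Each table was fitted whole, with a mean per group, by edgeR's quasi-likelihood functions glmQLFit and glmQLFTest (edgeR 4.0.16, limma 3.58.1, R 4.3.3). Scaling was TMM, library sizes came from all copies, and low counts were removed with filterByExpr. The filter kept 21328 copies of the Nutlin table and 63602 of the 5-FU table, of which 33 and 51 lie in the neighbourhood. Copies with an adjusted p under 0.05 (Benjamini-Hochberg, over the table) were called. SE is the log2 fold change divided by the square root of F. DESeq2 1.42.0, other scalings and filters, a replicate block and leaving out each library were the alternatives. The procedure was tested on simulated data. Every called copy of NEAT1 and MALAT1 is named, and the other NEAT1 copies are named in part and otherwise given by counts and ranges. Named in the flanks are the 3 copies with the highest mean CPM per stretch and up to 3 called each way per drug comparison. Any copy called under both drugs is named as well. Other tools were Python 3.11.15, numpy 2.4.6, pandas 2.3.3, data.table (version 1.17.8) and matplotlib 3.10.9. No hg19 sequence or gene annotation was used, and transcript lengths and sequences are from GENCODE v29, with no conversion of coordinates.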

Additional observations from a re-analysis of the deposited data

Results flagged for a closer look

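The effect of 5-FU on 3 NEAT1 copies differed between 24 h and 12 h by an interaction test, each lower than DMSO at 12 h and higher at 24 h. The difference of log2 fold changes was 2.57 for L1M5 at chr11:65208976-65209335, 2.52 for L1ME3F at chr11:65201342-65201665 and 2.52 for L1ME4a at chr11:65202701-65203040. This comparison was added after the data were seen. Over the alternatives the differences ran from 2.02 to 3.05, from 2.17 to 2.93 and from 1.62 to 3.05, and the adjusted p from edgeR or DESeq2 ran up to 0.440, 0.291 and 0.124.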

How the results depend on the processing

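Counts are called copies of the neighbourhood. At an adjusted p under 0.01 they were 9 for Nutlin (14 at 0.05), 1 for 5-FU 12 h, 0 for 5-FU 24 h, 0 for 24 h minus 12 h and 1 for DMSO against untreated. Library size alone shifted the median of all copies by -0.14 for Nutlin, -0.32 for 5-FU 12 h and -0.15 for 24 h, and gave 11 for 5-FU 12 h, 0 for 24 h and 6 for 24 h minus 12 h. No filter on low counts gave 1 for 5-FU 12 h and 5 for 24 h minus 12 h, and at least 10 counts in every library gave 9 for 24 h minus 12 h and 12 for DMSO against untreated. With only the compared groups in the fit, the counts were 0 for 5-FU 24 h, 0 for 24 h minus 12 h and 10 for DMSO against untreated. DESeq2 gave 10 for Nutlin, 0 for 5-FU 24 h, 1 for 24 h minus 6 h, 7 for 24 h minus 12 h and 9 for DMSO against untreated. 5-FU 12 h against DMSO 6 h and 24 h gave 26, and DMSO 12 h alone against untreated gave 1. Leaving out 1 library gave 13 to 17 for Nutlin (1 of them lower without DMSO or Nutlin replicate 2), 0 to 0 for 5-FU 6 h, 1 to 2 for 12 h, 0 to 15 for 24 h, 0 to 10 for 24 h minus 6 h, 0 to 14 for 24 h minus 12 h and 0 to 5 for DMSO against untreated where a lone sample is assumed to vary like the other groups. The log2 ratio of the sums changed sign for MALAT1 under Nutlin without DMSO replicate 2 (-0.0784, from 0.15, with up to 0.422 without 1 library). At 24 h it changed sign without 5-FU replicate 2 for NEAT1 (-0.0463, from 0.66, with up to 1.1254 without replicate 1) and for MALAT1 (0.0369, from -0.25, with -0.615 without replicate 1). The labels do not say that replicate numbers pair samples, and deviations of same-numbered samples correlated at -0.0030, -0.0029 and -0.02 for Nutlin, 5-FU 6 h and 12 h and at 0.14 for 24 h. With a replicate block the counts were 14 for Nutlin, 0 for 5-FU 6 h, 6 for 12 h, 0 for 24 h (L1ME4a lost its call), 0 for 24 h minus 6 h, 2 for 24 h minus 12 h and 4 for DMSO against untreated. The cause of these changes was not tested. Depth limits the flanks, where 6 copies could be tested for Nutlin and 22 for 5-FU.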
